A study of Homo sapiens with 10 samples.

Results

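The lysosome is the compartment in which cells degrade proteins, sugars and lipids, and its enzymes work in an acidic lumen. The acid is made by the vacuolar H+-ATPase (V-ATPase), a rotary pump in which a peripheral V1 sector hydrolyses ATP and a V0 sector in the membrane carries the protons. Many genes of this system carry the palindromic word CACGTG near their start sites and are bound there by the MiT/TFE transcription factors TFEB, TFE3 and MITF. A set of 35 genes of this system was followed in HeyA8 cells after transfection of toxic siRNAs. They were taken by name, as the main subunits of the V-ATPase, its accessory proteins, lysosomal membrane proteins, soluble hydrolases and their cofactors, out of 58395 genes in the count files.

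HeyA8 is a line established from a human ovarian carcinoma. Its cells were reverse transfected with 10 nM of a duplex whose name gives the 6mer seed of its guide strand, and RNA was taken 24 or 48 h later. The 5 groups were siNT1, the nontoxic control duplex, at 24 h and at 48 h, siGGGGGC at the same 2 times, and siGGCAGU at 48 h only, with 2 libraries each. All cells, controls included, had been transfected, and the 3 duplexes, the control (labelled siNT1 S2'OM) included, had a chemically modified passenger strand, which keeps it out of the RISC. The duplicates were wells of a single line, so the p-values cover only the spread between such wells and their libraries. Libraries held between 19781445 and 42428986 counts, and 2 small RNA genes, RN7SL2 and SNORD3A, took 19.83% to 31.96% of them. KRT8 (75.0 to 354 CPM) and VIM (790 to 1720 CPM) were high in every library, whereas EPCAM and KRT19 stayed at or below 1.70 CPM and the blood cell markers PTPRC, CD3E, CD14 and LYZ at or below 0.211 CPM. Of the markers used for ovarian cancer, MUC16 was at 0 to 1.16 CPM, WT1 at 1.46 to 4.92 CPM and PAX8 at 3.49 to 32.8 CPM. FN1 varied most widely, from 47.9 to 1060 CPM, and the endothelial marker CDH5 reached 1.37 CPM. The SD of the log2 ratio between the replicates over the members was 0.111 to 0.188 in 4 groups and 0.249 with siGGCAGU, whose libraries differed most.

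Both seeds also occur in human miRNAs, which is why the mature miRNAs are shown here (RefSeq, GRCh38.p14), with bases 2 to 7, the 6mer seed, in capitals. The first pair carries the seed of siGGCAGU and the second pair that of siGGGGGC.
hsa-miR-34a-5p: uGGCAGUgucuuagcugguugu
hsa-miR-449a: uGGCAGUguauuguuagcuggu
hsa-miR-1237-5p: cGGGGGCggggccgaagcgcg
hsa-miR-4488: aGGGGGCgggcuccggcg
A guide of this kind pairs with messenger RNAs through the reverse complement of its seed, which is ACTGCC for siGGCAGU and GCCCCC for siGGGGGC. These words in the 3′ UTRs of the members are taken up after the expression values.

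Of the 35 members, 34 had enough counts to be tested. The exception was ATP6V0C, the proteolipid of the V0 ring, which had 1 to 7 counts per library and 24 in all. Of its annotated exon bases 76.3% also belong to other counted genes on the same strand, and 2 of these, ENSG00000259784 and ENSG00000260272, had 0 counts in every library. A read that falls on several genes is usually dropped by the counting program, and the part of this in the low value was not tested. For the others, values are raw counts scaled to the TMM library size and are called normalised counts. Levels of different genes are compared only as CPM per kilobase of exon. On that scale the 3 highest members in siNT1 at 48 h were ATP6V0E1 (173), the tetraspanin CD63 (130) and prosaposin, PSAP (78.1). The lowest were ATP6V0A2 (0.835), HEXA (0.553) and TPP1 (0.506).

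Taken as a sum, the members held 67697 and 71735 normalised counts with siNT1 at 48 h, 107980 and 101370 with siGGCAGU, and 91280 and 93212 with siGGGGGC. The sum was thus higher with both toxic siRNAs than with the control, and the libraries did not overlap. Not every role followed it. The peptidases summed to 11786 and 11869 with siGGGGGC, against 13205 and 13732 with siNT1 and 27245 and 24817 with siGGCAGU. At 24 h the sums over all members were 69865 and 72803 with siNT1 and 75225 and 76997 with siGGGGGC. In bulk RNA, fewer cells with a transcript and less of it per cell cannot be told apart.

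**Figure D1:**
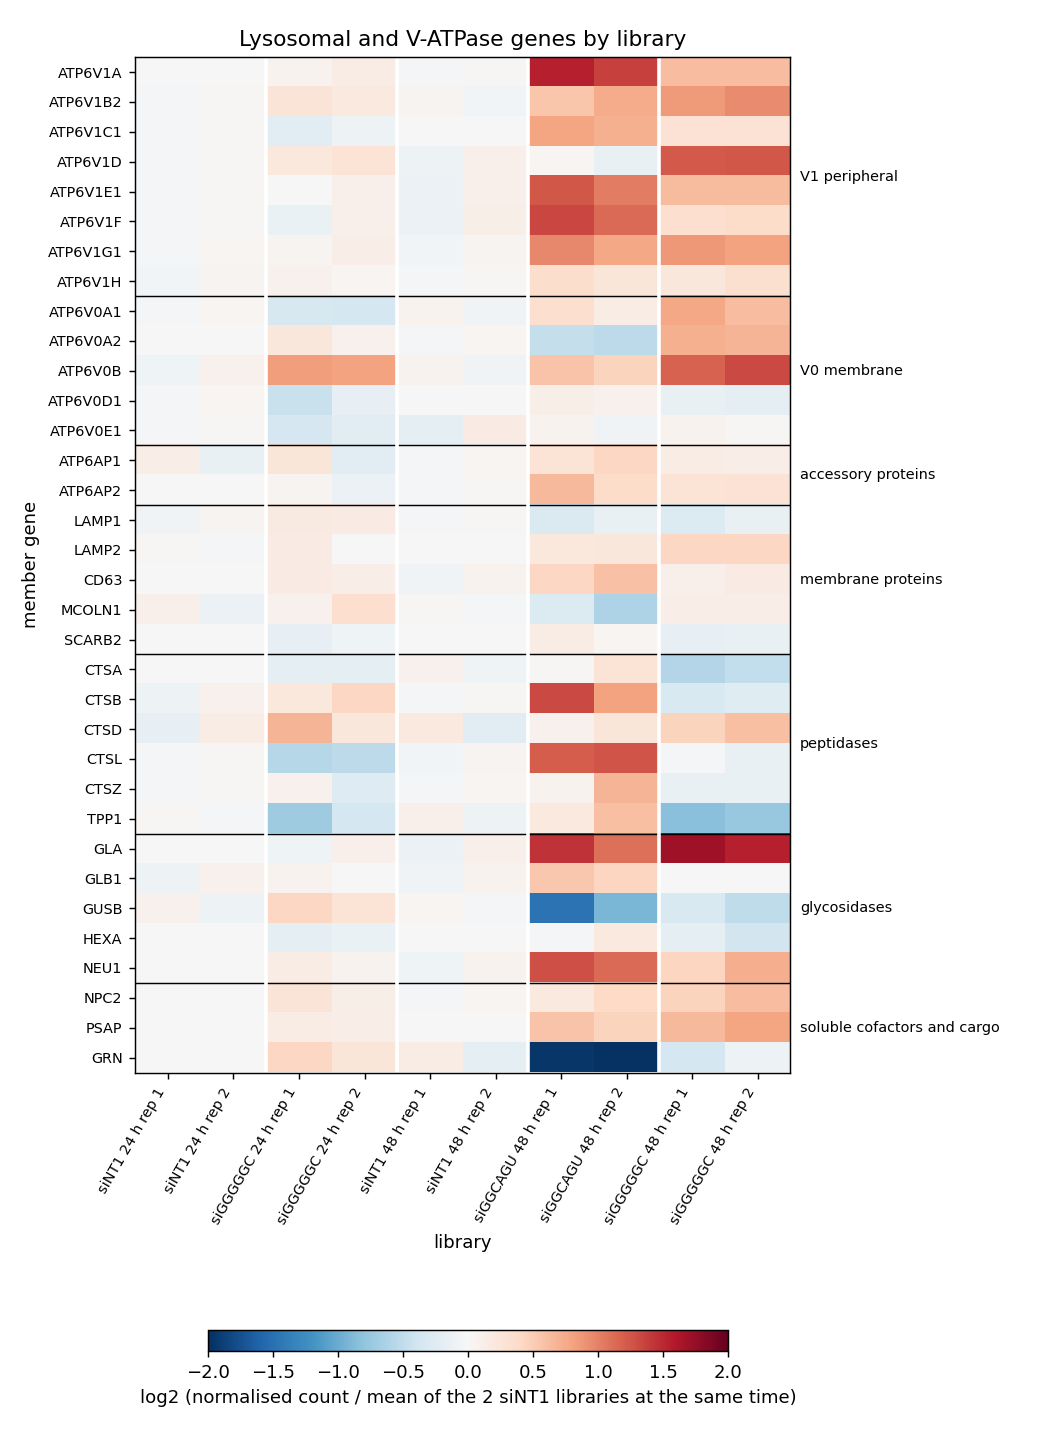
Each row is a member and each column a library; the colour is the log2 ratio of its normalised count to the mean of the 2 siNT1 libraries of the same time, and lines divide the roles. The siGGGGGC libraries at 24 h already show ATP6V0B in red and CTSL in blue, and at 48 h most rows of the V1 sector are red with both siRNAs and GRN and GUSB are blue with siGGCAGU.

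The first comparison asked what siGGGGGC had changed after 48 h. Of the 34 members tested, 18 (52.9%) rose and 3 (8.82%) fell, a gene being said to rise or fall when its adjusted p was below 0.05 in edgeR (quasi-likelihood test, adjusted by Benjamini-Hochberg over the 16905 genes tested). Of all those genes 27.8% rose and 27.5% fell. The median log2 fold change of the members was 0.28, against -0.01 for all genes. When 1 siGGCAGU library was left out of the fit, either of them, 5 members fell. With siGGCAGU at 48 h, 21 members (61.8%) rose and 5 (14.7%) fell, where 27.8% of all genes rose and 24.9% fell. When either siNT1 library of 48 h was left out, 3 members fell. The median was 0.38 for the members and 0.02 for all genes. Both comparisons used the same siNT1 libraries. Not all of these rises held under alternative fits. With only the libraries compared in the fit, the rise of ATP6V1F with siGGGGGC was lost. So were those of ATP6AP1, ATP6V1H, LAMP2, CTSZ, TPP1 and NPC2 with siGGCAGU, where 3732 (22.3%) of 16756 genes rose. Without a count filter, the rises of ATP6V1C1, ATP6V1F, ATP6V1H and ATP6AP2 with siGGGGGC were lost, where 3993 (9.6%) of 41458 genes rose.

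**Figure D2:**
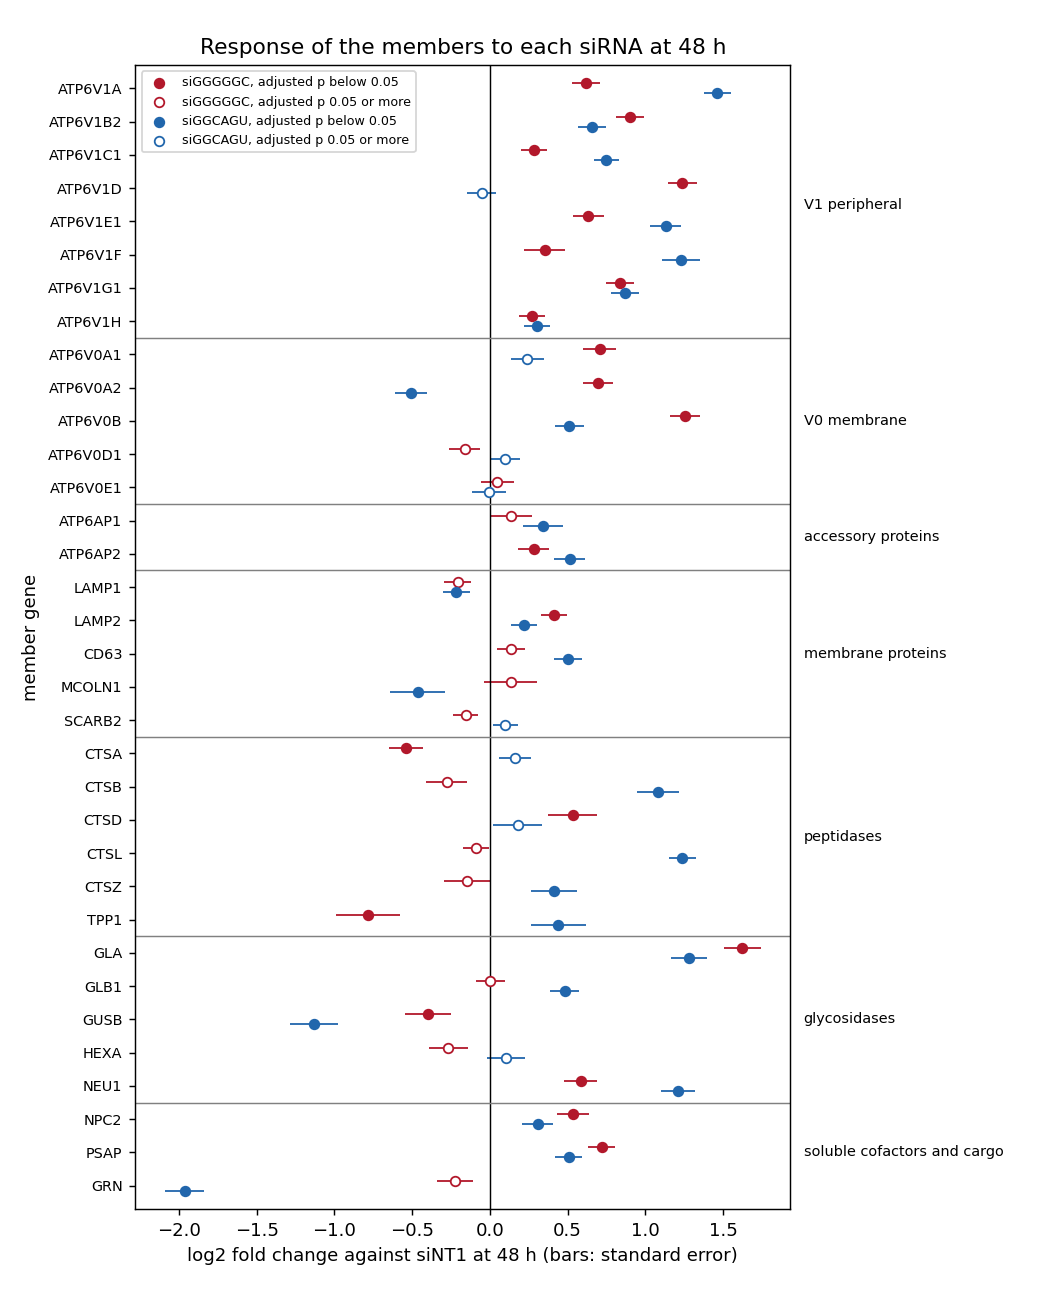
Log2 fold changes of the 34 tested members against siNT1 at 48 h, with standard errors as bars; filled points have an adjusted p below 0.05. With siGGGGGC (red) the 8 V1 subunits lie right of 0, and GLA is the member farthest right at 1.62; with siGGCAGU (blue) ATP6V1A is farthest right at 1.46 and GRN farthest left at -1.96.

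The roles hold few genes each, and their counts at 48 h stand beside the same shares over all genes. These were 27.8% up and 27.5% down with siGGGGGC, and 27.8% up and 24.9% down with siGGCAGU. Of the 8 subunits of the V1 sector, 8 rose with siGGGGGC, with log2 fold changes from 0.27 to 1.24, and 7 rose with siGGCAGU, with a range over the 8 of -0.05 to 1.46. The count with siGGGGGC was 5 of 8 when siGGGGGC replicate 2 at 48 h was left out, since ATP6V1C1, ATP6V1F and ATP6V1H then missed the threshold.

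ATP6V1A is the catalytic subunit that binds and hydrolyses ATP (ENSG00000114573, hg38 chromosome 3, 113746770 to 113812056, plus strand). At 48 h it had 1950 and 2036 normalised counts with siNT1, 5868 and 5128 with siGGCAGU, and 3068 and 3057 with siGGGGGC. The 3 groups did not overlap. Its log2 fold change was 1.46 ± 0.0886 (SE) with siGGCAGU (adjusted p = 2.79e-09, edgeR) and 0.62 ± 0.0879 with siGGGGGC (adjusted p = 2.37e-05, edgeR).

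ATP6V1D belongs to the central rotor that couples both sectors (ENSG00000100554, chromosome 14, 67294371 to 67360265, minus strand). It had 2732 and 3151 normalised counts with siNT1, 3022 and 2659 with siGGCAGU, and 6904 and 6965 with siGGGGGC. Only siGGGGGC was apart from the control here. The log2 fold change was 1.24 ± 0.0946 with siGGGGGC (adjusted p = 3.93e-08, edgeR) and -0.05 ± 0.0941 with siGGCAGU (adjusted p = 0.672, edgeR).

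ATP6V1E1 forms part of a peripheral stalk that holds the sectors together (ENSG00000131100, chromosome 22, 17592136 to 17628749, minus strand). Its normalised counts were 1684 and 1964 with siNT1, 4304 and 3693 with siGGCAGU, and 2826 and 2834 with siGGGGGC. It rose by 1.13 ± 0.0989 with siGGCAGU and by 0.63 ± 0.0986 with siGGGGGC on the log2 scale (adjusted p = 1.39e-07 and 5.98e-05, edgeR). The order of the groups was that of ATP6V1A.

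ATP6V1F, a small subunit of the rotor (ENSG00000128524, chromosome 7, 128862856 to 128865847, plus strand), had fewer counts. There were 173.5 and 203.9 normalised counts with siNT1, 479 and 414 with siGGCAGU, and 239 and 244 with siGGGGGC. The log2 fold change was 1.23 ± 0.124 with siGGCAGU (adjusted p = 6.76e-07, edgeR) and 0.35 ± 0.130 with siGGGGGC (adjusted p = 0.0313, edgeR). Of its exon bases 20.6% lie opposite the gene KCP, and whether the counting used strand is not given in the sources used here. The other subunits were ATP6V1B2, the partner of ATP6V1A in the ATP-binding ring, ATP6V1G1 of the stalks, and ATP6V1C1 and ATP6V1H, which regulate the joining of V1 and V0. With siGGGGGC their log2 fold changes were 0.90 for ATP6V1B2, 0.84 for ATP6V1G1, 0.28 for ATP6V1C1 and 0.27 for ATP6V1H. With siGGCAGU they were 0.66, 0.87, 0.75 and 0.30 in the same order, and all of these passed the test.

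In the V0 sector 3 of 5 tested subunits rose with siGGGGGC, while 1 rose and 1 fell with siGGCAGU. ATP6V0B is a proteolipid of the proton-carrying ring (ENSG00000117410, chromosome 1, 43974487 to 43978295, plus strand). It had 2873 and 2604 normalised counts with siNT1 at 48 h, 4088 and 3719 with siGGCAGU, and 6208 and 6853 with siGGGGGC. It rose by 1.25 ± 0.0956 with siGGGGGC and by 0.51 ± 0.0948 with siGGCAGU on the log2 scale (adjusted p = 3.77e-08 and 0.000306, edgeR).

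ATP6V0A2 is the isoform of the large membrane subunit that is best known from the Golgi (ENSG00000185344, chromosome 12, 123712353 to 123761755, plus strand). Its normalised counts were 364 and 383 with siNT1, 268 and 259.6 with siGGCAGU, and 614 and 595 with siGGGGGC. The siRNAs moved it to opposite sides of the control. Its log2 fold change was 0.69 ± 0.0974 with siGGGGGC (adjusted p = 2.12e-05, edgeR) and -0.50 ± 0.103 with siGGCAGU (adjusted p = 0.000677, edgeR). The related isoform ATP6V0A1 rose with siGGGGGC by 0.70 ± 0.105 (adjusted p = 3.97e-05, edgeR) and was at 0.24 ± 0.107 with siGGCAGU (adjusted p = 0.0714, edgeR).

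ATP6V0E1, a small membrane subunit (ENSG00000113732, chromosome 5, 172983771 to 173035445, plus strand), had 6349 and 8097 normalised counts with siNT1, 7562 and 6854 with siGGCAGU, and 7614 and 7337 with siGGGGGC. The groups overlapped, and the log2 fold changes were -0.00 ± 0.108 and 0.05 ± 0.108 (adjusted p = 0.98 and 0.723, edgeR). ATP6V0D1, which joins the ring to the rotor, had log2 fold changes of 0.10 with siGGCAGU and -0.16 with siGGGGGC, neither past the threshold. Of the accessory proteins, ATP6AP2, also known as the prorenin receptor, rose by 0.51 with siGGCAGU and by 0.28 with siGGGGGC. ATP6AP1 rose by 0.34 with siGGCAGU (adjusted p = 0.0374, edgeR) and was at 0.14 with siGGGGGC (adjusted p = 0.4, edgeR). Its call was lost without either siNT1 library of 48 h, siGGCAGU replicate 2, or either siGGGGGC library of 48 h. Leaving out any of the 4 libraries compared ended the call of ATP6AP2 with siGGGGGC.

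Of the 5 lysosomal membrane proteins 1 rose with siGGGGGC, LAMP2, a receptor of chaperone-mediated autophagy, by 0.41 ± 0.0820 on the log2 scale (adjusted p = 0.000518, edgeR). With siGGCAGU 2 of the 5 rose and 2 fell. CD63 (ENSG00000135404, chromosome 12, 55725323 to 55729707, minus strand) had 7778 and 8616 normalised counts with siNT1, 10980 and 12260 with siGGCAGU, and 8819 and 9163 with siGGGGGC. It rose by 0.50 ± 0.0902 with siGGCAGU (adjusted p = 0.000226, edgeR) and was at 0.13 ± 0.0902 with siGGGGGC (adjusted p = 0.225, edgeR). MCOLN1, the lysosomal calcium channel TRPML1, fell by 0.47 ± 0.178 with siGGCAGU (adjusted p = 0.0389, edgeR), and the call was lost without siGGCAGU replicate 2 or without either siNT1 library of 48 h. LAMP1, the major glycoprotein of the lysosomal membrane, and LAMP2 were near the threshold with siGGCAGU, at -0.22 (adjusted p = 0.0476, edgeR) and 0.22 (adjusted p = 0.0362, edgeR), and most alternatives ended both calls. SCARB2, a membrane protein that also delivers cargo to the lysosome, was at 0.10 with siGGCAGU and -0.15 with siGGGGGC, neither past the threshold.

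Of the 6 peptidases, 4 rose and 0 fell with siGGCAGU, and 6 had a positive log2 fold change, between 0.16 and 1.24. With siGGGGGC 1 rose, CTSD, and 2 fell, CTSA and TPP1. The count of 4 was 2 without siGGCAGU replicate 2 or without siNT1 replicate 2 at 48 h, when CTSZ and TPP1 missed the threshold (CTSZ also without siNT1 replicate 1), and the CTSD call was lost without siNT1 replicate 2 or siGGGGGC replicate 2 at 48 h.

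CTSB is a cysteine peptidase of broad specificity (ENSG00000164733, chromosome 8, 11842524 to 11869533, minus strand). It had 6018 and 6268 normalised counts with siNT1, 15300 and 10750 with siGGCAGU, and 4952 and 5191 with siGGGGGC. The siGGCAGU libraries differed from each other by more than the other pairs, yet both were above all the others. It rose by 1.08 ± 0.134 with siGGCAGU (adjusted p = 6.09e-06, edgeR) and was at -0.28 ± 0.133 with siGGGGGC (adjusted p = 0.0914, edgeR).

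CTSL, a related cysteine peptidase (ENSG00000135047, chromosome 9, 87724051 to 87731469, plus strand), had 3224 and 3489 normalised counts with siNT1, 7791 and 8041 with siGGCAGU, and 3265 and 3041 with siGGGGGC. The log2 fold change was 1.24 ± 0.0845 with siGGCAGU (adjusted p = 9.45e-09, edgeR) and -0.09 ± 0.0840 with siGGGGGC (adjusted p = 0.379, edgeR). The siGGGGGC libraries overlapped those of the control.

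TPP1, which removes tripeptides from protein ends (ENSG00000166340, chromosome 11, 6612768 to 6619448, minus strand), had the fewest counts per length of the 34 tested members. It had 91.4 and 79.6 normalised counts with siNT1, 98.1 and 129 with siGGCAGU, and 48.1 and 50.7 with siGGGGGC. It fell by 0.78 ± 0.204 with siGGGGGC (adjusted p = 0.00418, edgeR). Its rise of 0.44 ± 0.178 with siGGCAGU (adjusted p = 0.0488, edgeR) was lost under most alternatives. Of its exon bases 11.6% are shared with another gene on the same strand.

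CTSA, which also protects the sialidase NEU1 in a complex, fell by 0.54 ± 0.109 with siGGGGGC (adjusted p = 0.000641, edgeR) and was at 0.16 with siGGCAGU. CTSD, the aspartic peptidase, rose by 0.53 ± 0.156 with siGGGGGC (adjusted p = 0.00913, edgeR) and was at 0.18 with siGGCAGU. CTSZ, a carboxypeptidase, rose by 0.41 ± 0.149 with siGGCAGU (adjusted p = 0.0293, edgeR) and was at -0.15 with siGGGGGC. Other genes cover part of the exons of these 3, on the opposite strand in 21.5% of the bases of CTSA, 31.7% of CTSZ and 23.4% of CTSD, and on the same strand in 27.3% of CTSD.

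Of the 5 glycosidases, 2 rose and 1 fell with siGGGGGC, and 3 rose and 1 fell with siGGCAGU. GLA, the alpha-galactosidase that is deficient in Fabry disease (ENSG00000102393, chromosome X, 101393273 to 101408012, minus strand), had 1242 and 1453 normalised counts with siNT1, 3654 and 2902 with siGGCAGU, and 4366 and 3948 with siGGGGGC. This was 3.08-fold the control with siGGGGGC, with a log2 fold change of 1.62 ± 0.117 (adjusted p = 2.10e-08, edgeR). With siGGCAGU it was 2.43-fold, with a log2 fold change of 1.28 ± 0.116 (adjusted p = 2.08e-07, edgeR).

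NEU1, the lysosomal sialidase (ENSG00000204386, chromosome 6, 31857659 to 31862905, minus strand), had 545 and 609.5 normalised counts with siNT1, 1406 and 1273 with siGGCAGU, and 778 and 954 with siGGGGGC. It rose by 1.21 ± 0.107 with siGGCAGU and by 0.58 ± 0.108 with siGGGGGC (adjusted p = 1.54e-07 and 0.000288, edgeR). The groups did not overlap.

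GUSB, the beta-glucuronidase, went the other way (ENSG00000169919, chromosome 7, 65960684 to 65982215, minus strand). It had 368 and 347 normalised counts with siNT1, 128 and 190 with siGGCAGU, and 291 and 253 with siGGGGGC. It fell by 1.13 ± 0.153 with siGGCAGU (adjusted p = 1.56e-05, edgeR) and by 0.40 ± 0.147 with siGGGGGC (adjusted p = 0.0321, edgeR), of which the second call was lost without siNT1 replicate 1 or siGGGGGC replicate 2 at 48 h. GLB1, the beta-galactosidase, rose by 0.48 ± 0.0926 with siGGCAGU (adjusted p = 0.000417, edgeR) and was at 0.00 with siGGGGGC. HEXA, the alpha chain of hexosaminidase A, was at 0.10 with siGGCAGU and -0.27 with siGGGGGC, neither past the threshold.

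Of the soluble cofactors and cargo, PSAP and NPC2 rose with both siRNAs and GRN fell with siGGCAGU. PSAP is the precursor of the saposins that present lipids to hydrolases (ENSG00000197746, chromosome 10, 71816298 to 71851251, minus strand). Its normalised counts were 6332 and 6306 with siNT1, 9404 and 8566 with siGGCAGU, and 9949 and 10860 with siGGGGGC. It rose by 0.72 ± 0.0867 with siGGGGGC and by 0.51 ± 0.0866 with siGGCAGU (adjusted p = 4.56e-06 and 0.000143, edgeR). NPC2, the cholesterol carrier of the lumen, rose by 0.54 with siGGGGGC and by 0.31 with siGGCAGU, the latter a call that was lost without siNT1 replicate 1 or siGGCAGU replicate 2.

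GRN, progranulin, is secreted and also delivered to lysosomes, where it is cut into granulins (ENSG00000030582, chromosome 17, 44345246 to 44353106, plus strand). It had 1142 and 908 normalised counts with siNT1, 265.5 and 260.3 with siGGCAGU, and 799 and 952 with siGGGGGC. The siGGCAGU libraries were far below the others, whereas siGGGGGC overlapped the control. GRN fell by 1.96 ± 0.127 with siGGCAGU (adjusted p = 5.77e-09, edgeR) and was at -0.23 ± 0.117 with siGGGGGC (adjusted p = 0.116, edgeR).

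**Figure D3:**
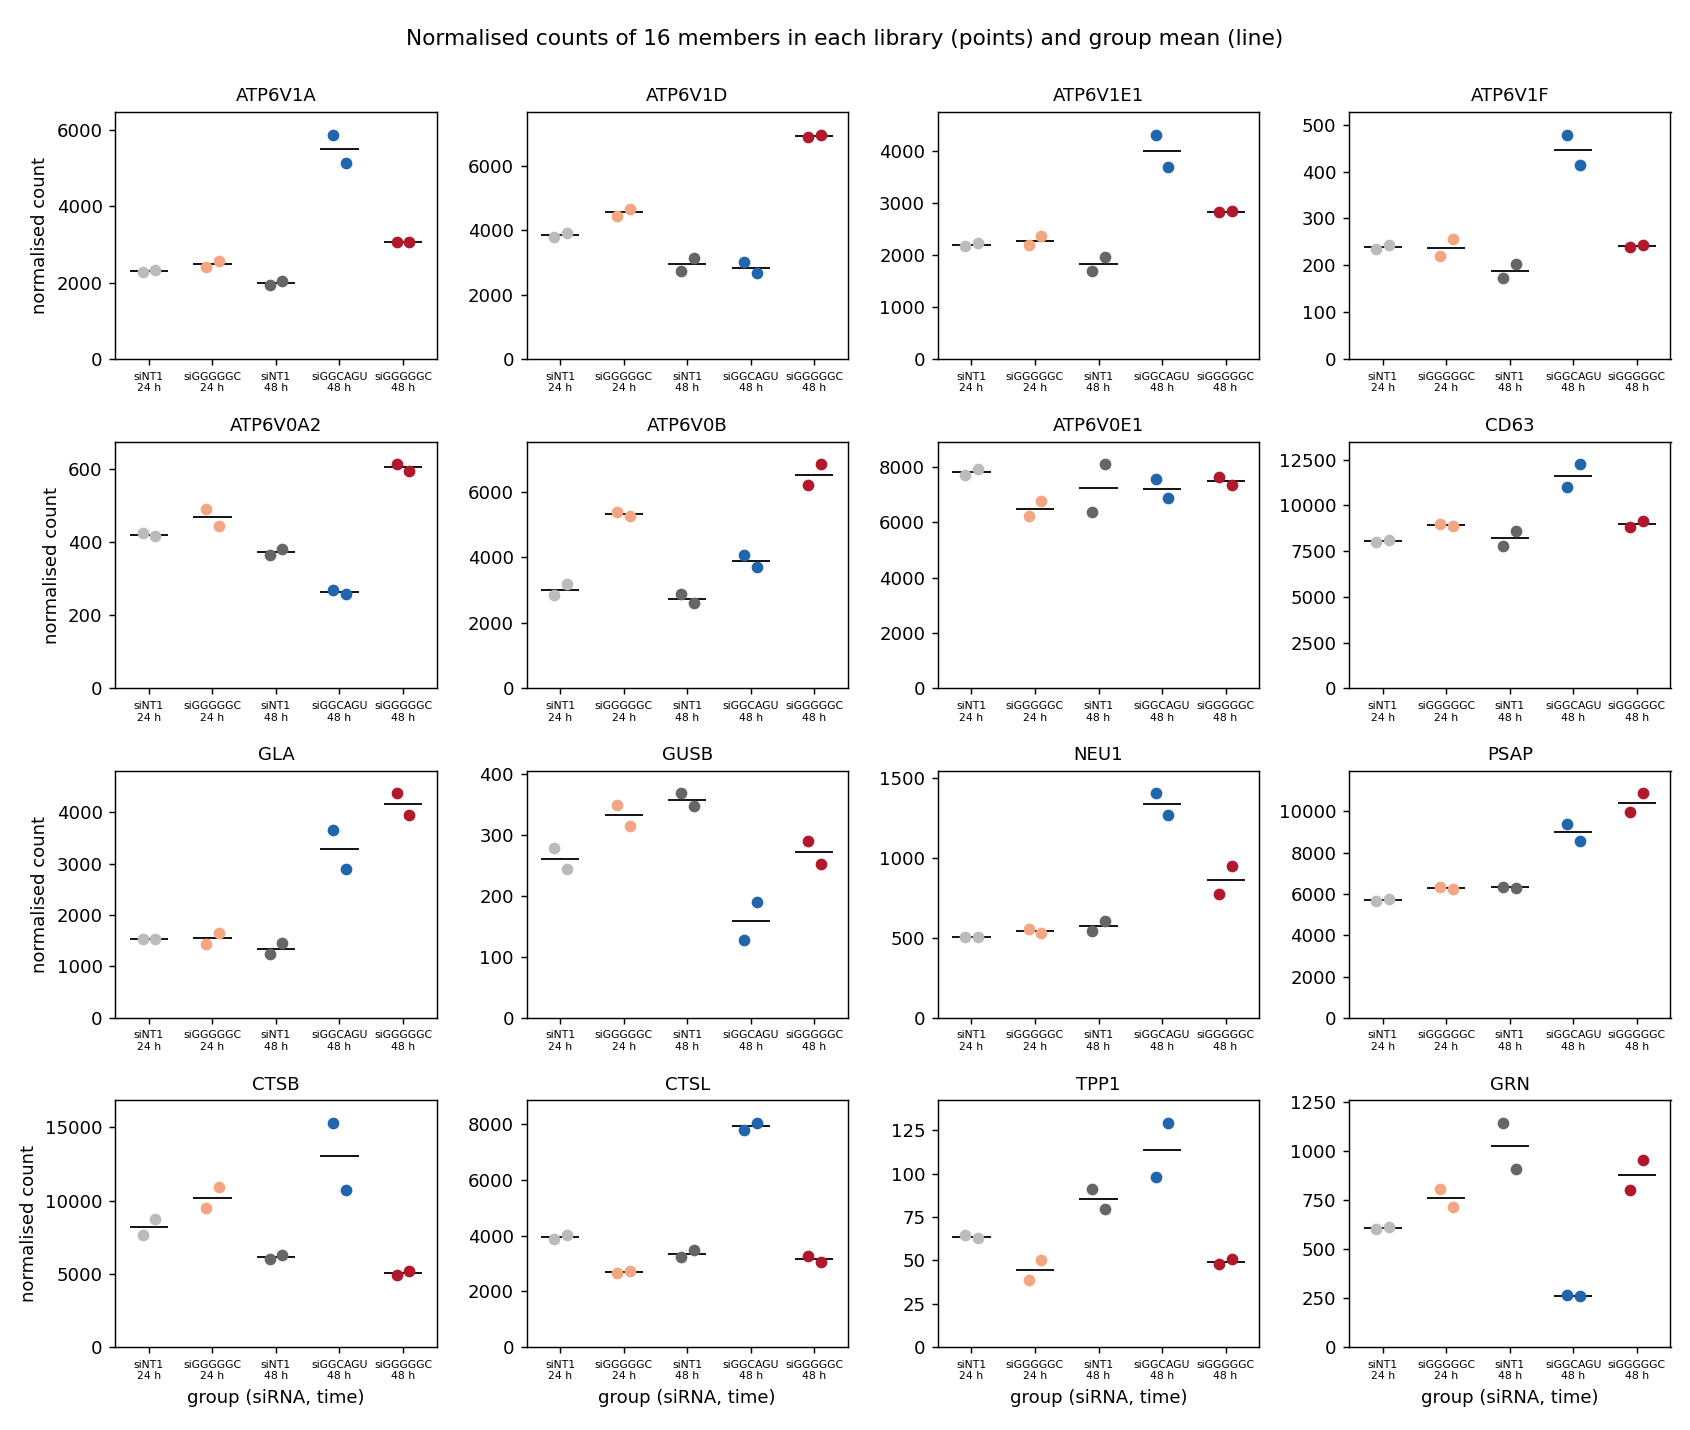
Normalised counts of 16 members, one panel each, in the 10 libraries (points) with the mean of each group of 2 (line); each axis starts at 0. ATP6V1D, ATP6V0B, ATP6V0A2, GLA and PSAP are highest with siGGGGGC at 48 h, ATP6V1A, ATP6V1E1, ATP6V1F, CTSB, CTSL and NEU1 with siGGCAGU, and GRN is lowest with siGGCAGU at 265.5 and 260.3.

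To see which of these responses differed between the seeds, siGGGGGC was compared directly with siGGCAGU at the same dose and time. Of the 34 members, 10 (29.4%) were higher and 15 (44.1%) lower with siGGGGGC, where 26.7% of all genes were higher and 27.6% lower. The median log2 difference was -0.12 for the members and -0.01 for all genes. By role, of the 6 peptidases 0 were higher and 5 lower with siGGGGGC, and the median was -0.96. Of the 5 tested V0 subunits 3 were higher and 1 lower, and of the 8 V1 subunits 2 were higher and 4 lower. The lower V0 call, ATP6V0D1, was lost without any 1 of the 4 libraries compared or of the siNT1 libraries of 24 h. The higher V1 subunits numbered 1, with ATP6V1B2 lost, without siGGCAGU replicate 1, either siGGGGGC library of 48 h or either siNT1 library of 24 h.

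Among the members higher with siGGGGGC, the log2 difference was 1.74 ± 0.129 for GRN (adjusted p = 2.31e-08, edgeR), 1.29 ± 0.0952 for ATP6V1D (adjusted p = 2.15e-08, edgeR) and 1.20 ± 0.103 for ATP6V0A2 (adjusted p = 1.11e-07, edgeR). ATP6V0B was higher by 0.74 and GUSB by 0.73. Among those lower with siGGGGGC, it was -1.36 ± 0.135 for CTSB (adjusted p = 5.51e-07, edgeR), -1.33 ± 0.0851 for CTSL (adjusted p = 4.49e-09, edgeR) and -1.22 ± 0.204 for TPP1 (adjusted p = 0.000107, edgeR). ATP6V1F (-0.88), ATP6V1A (-0.84), CTSA (-0.70), NEU1 (-0.63) and CTSZ (-0.56) were also lower, the last of these not without siGGCAGU replicate 2. For ATP6V1G1 and ATP6V1H the difference was -0.03 in each case, with standard errors of 0.0894 and 0.0843. GLA was higher with siGGGGGC by 0.34 ± 0.114 (adjusted p = 0.0179, edgeR), a call that was lost without siGGCAGU replicate 2 or siGGGGGC replicate 1 at 48 h, and PSAP by 0.21 ± 0.0864 (adjusted p = 0.0493, edgeR), which most alternatives ended.

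**Figure D4:**
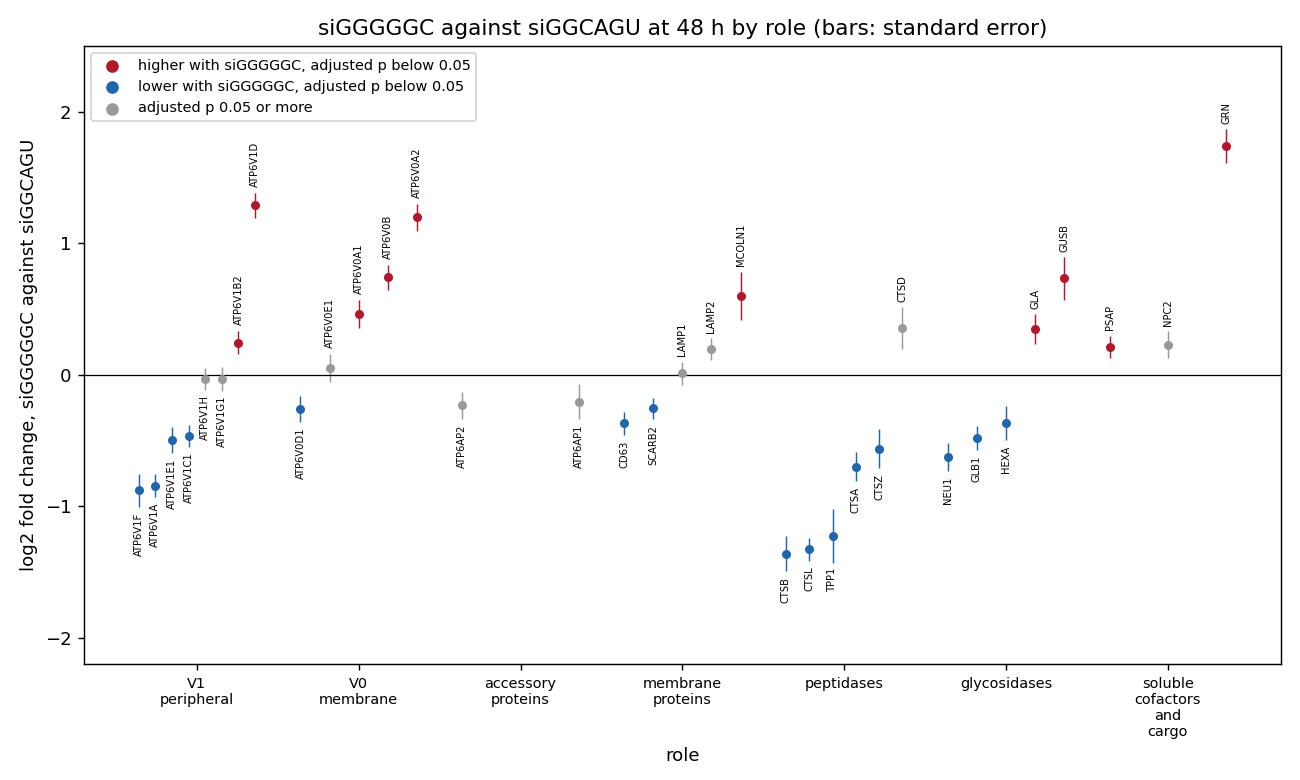
Log2 difference between siGGGGGC and siGGCAGU at 48 h for the 34 tested members, grouped by role, with standard errors as bars and colour for the calls. The peptidases CTSB, CTSL and TPP1 lie below -1, and GRN, ATP6V1D and ATP6V0A2 lie above 1.

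In the main fit siGGGGGC had changed few members at 24 h. Of the 34 tested, 1 (2.94%) rose and 1 (2.94%) fell, where 10.6% of all genes rose and 8.32% fell. The numbers were 1 and 3 with upper-quartile scaling and also in a fit that scaled and tested the 12404 protein-coding genes alone. Over all genes, 1527 of 16905 rose and 1662 fell with that scaling, and 1660 and 1355 did in the protein-coding fit. When the fit held the 24 h libraries alone, where 2617 (17.6%) of 14869 genes rose and 2488 fell, 7 members rose and 5 fell. Without siGGGGGC replicate 2 at 24 h there were 2 and 2, and without any 1 of the siNT1 or siGGCAGU libraries of 48 h, which share the estimate of spread, 4 rose. The median log2 fold change was 0.07 for the members and 0.00 for all genes. The gene that rose was ATP6V0B, with 2841 and 3186 normalised counts in siNT1 and 5379 and 5266 in siGGGGGC (log2 fold change 0.82 ± 0.0958, adjusted p = 3.18e-05, edgeR). The gene that fell was CTSL, with 3884 and 4004 against 2666 and 2748 normalised counts (log2 fold change -0.54 ± 0.0852, adjusted p = 0.00041, edgeR). GLA, which was high at 48 h, had 1527 and 1533 normalised counts with siNT1 and 1445 and 1649 with siGGGGGC at 24 h.

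The difference of the siGGGGGC effect between 48 h and 24 h was tested as an interaction. It was positive for 14 members (41.2%) and negative for 4 (11.8%), where 13.4% of all genes were called positive and 15.2% negative. In the V1 sector 6 of 8 subunits were called positive and 0 negative, and in V0 3 of 5 tested, a count that was 1 without siGGGGGC replicate 2 at 24 h. GLA had the largest value among the members at 1.61 ± 0.166 (adjusted p = 6.02e-06, edgeR), followed by ATP6V0A1 at 1.04 and ATP6V1D at 0.99 ± 0.133 (adjusted p = 6.40e-05, edgeR). The negative ones were GUSB (-0.74), CTSB (-0.59), GRN (-0.55) and LAMP1 (-0.38). CTSL was called positive at 0.45, from -0.54 at 24 h and -0.09 at 48 h, a call lost without siNT1 replicate 2 at 24 h or replicate 1 of siGGGGGC at either time. The positive calls numbered 9 without siNT1 replicate 2 or siGGGGGC replicate 1 at 24 h. The negative calls numbered 1 or 2 without any 1 of the 24 h libraries or of the siGGGGGC libraries of 48 h.

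**Figure D5:**
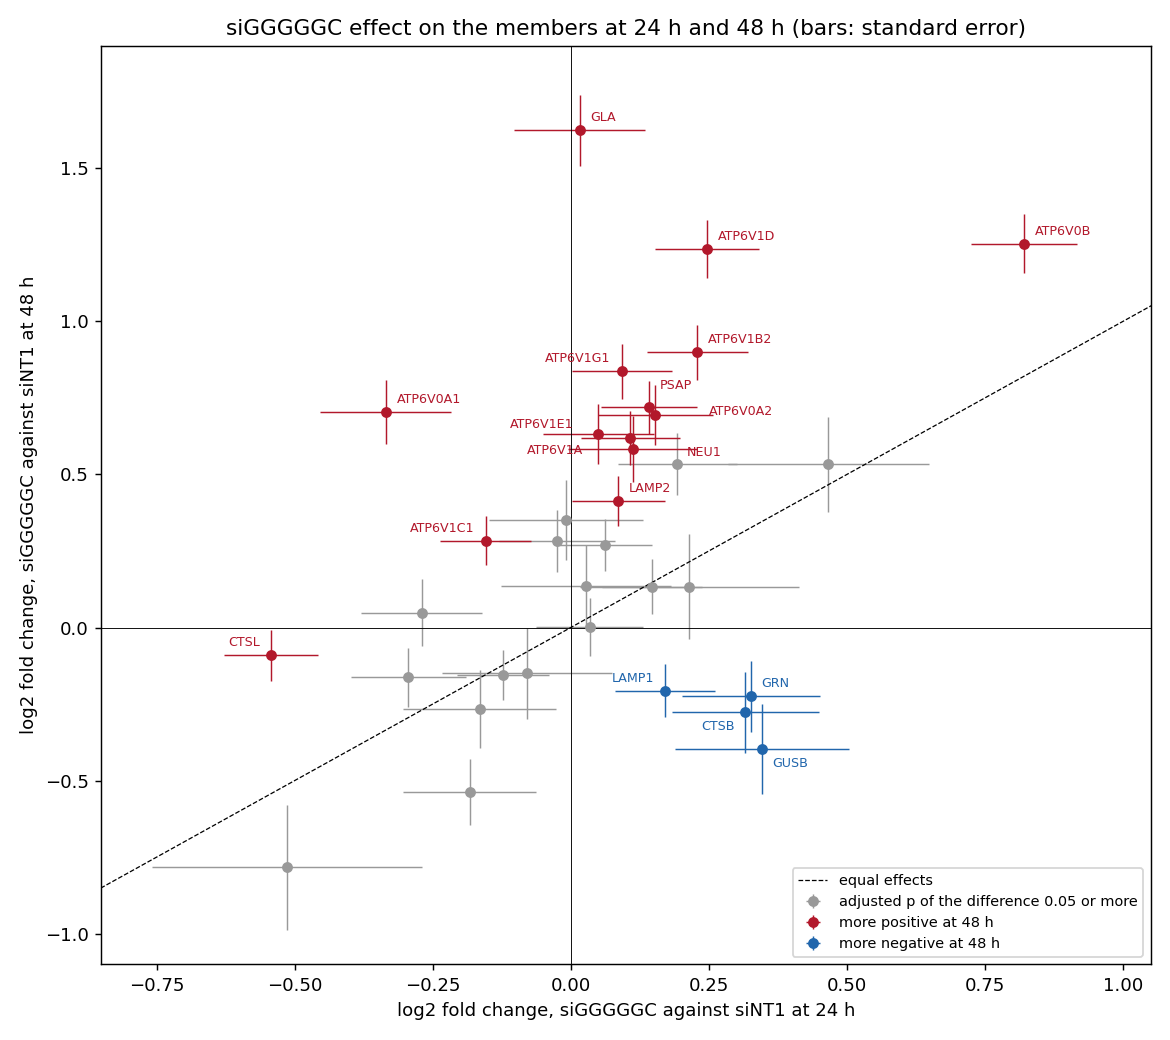
Log2 fold change of each tested member with siGGGGGC against siNT1 at 24 h (x axis) and at 48 h (y axis), with standard errors as bars; the dashed line marks equal effects and colour marks members whose effects differed by the interaction test. GLA lies at 0.02 and 1.62, and ATP6V0B is the only member called higher at both times.

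The control itself changed between the time points. In siNT1 at 48 h against 24 h, 7 members (20.6%) were higher and 2 (5.88%) lower, where 9.37% of all genes were higher and 7.20% lower. There were 7 and 4 with upper-quartile scaling and in the fit of protein-coding genes alone. Over all genes, 1297 of 16905 were higher and 1736 lower with that scaling, and 1464 and 1315 of 12404 in the protein-coding fit. LAMP1 was higher by 0.79 ± 0.0888 (adjusted p = 0.000125, edgeR) and GRN by 0.75 ± 0.120 (adjusted p = 0.00127, edgeR). For GRN the normalised counts went from 604 and 610.1 at 24 h to 1142 and 908 at 48 h. The others were ATP6AP1 (0.67), CTSD (0.63), CTSA (0.57), CTSZ (0.56) and ATP6V0D1 (0.36), and the 2 lower members were CTSB (-0.42) and ATP6V1D (-0.38). The 3 peptidase calls among the higher members numbered 0 without siNT1 replicate 1 at 24 h and also without replicate 2 at 24 h, and the 7 higher calls in all numbered 3, 2 and 4 without siNT1 replicate 1 at 24 h, replicate 2 at 24 h and replicate 1 at 48 h. The 2 lower calls numbered 0 without any of these 3 libraries, 1 without any siGGGGGC library, and 4 without siNT1 replicate 2 at 48 h or either siGGCAGU library.

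The words that pair with the seeds were counted in the longest annotated 3′ UTR of each member (GENCODE release 44, hg38), with no test. Every annotated transcript with a stop codon was taken, whatever its type, and all its bases after the stop counted as 3′ UTR. A stop early in the gene thus adds sequence that the usual transcript may splice out or translate. Which transcripts these cells use was not determined. GCCCCC was present in 12 of the 34 tested members (35.3%) and in 35.8% of 12419 tested genes with a 3′ UTR. In the siGGGGGC libraries of 48 h, members with the word had a median log2 fold change of 0.02 and those without it of 0.38, against -0.13 and 0.08 over all genes. At 24 h the medians were -0.116 and 0.10 for the members and 0.025 and 0.036 over all genes. The word was in 6 of 6 peptidases and in 1 of 8 V1 subunits. These 3′ UTRs had 1848 to 9963 bases in the peptidases and 269 to 4304 in the V1 subunits, and the part of length was not tested. In the shortest 3′ UTRs CTSB, CTSL and TPP1 were the only peptidases with the word, and no V1 subunit held it. Sites of TPP1, the member that fell most with siGGGGGC, and of CTSL, the only one to fall at 24 h, are shown with the word in capitals and the bases around it on the transcript strand (hg38, minus strand for TPP1 and plus strand for CTSL). In each gene the sites span more of the genome than its 3′ UTR is long (3120 bases in TPP1, 2271 in CTSL). Introns thus lie between them, and some may fall outside the usual 3′ UTR.
TPP1, chr11:6617314-6617319: caggccttgGCCCCCcatgtggac
TPP1, chr11:6614922-6614927: ttagtggccGCCCCCctcttggct
TPP1, chr11:6613423-6613428: tcccctccaGCCCCCaatcatagc
TPP1, chr11:6612949-6612954: ttgcactgcGCCCCCtgtgcctac
CTSL, chr9:87728340-87728345: ttttatgagGCCCCCagatctgtg
CTSL, chr9:87731183-87731188: agtctaccaGCCCCCgctgtgtcg
ATP6V0A1 held 7 copies in a 3′ UTR of 5797 bases and nevertheless rose with siGGGGGC at 48 h, by 0.70, and had a log2 fold change of -0.34 at 24 h (adjusted p = 0.0628, edgeR). In the shortest annotated 3′ UTRs the word was found in 6 members, and 3 of them, ATP6V0B, NEU1 and GRN, do not hold it in their longest. The median of the 6 was -0.16 at 48 h and 0.21 at 24 h, where the members without the word had 0.28 and 0.06. With these 3′ UTRs, members with the word were thus lower at 48 h but higher at 24 h.

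ACTGCC was present in 14 of the 34 members (41.2%) and in 41.3% of the 12419 genes. With siGGCAGU the median log2 fold change was 0.29 for members with the word and 0.45 for those without it, against -0.04 and 0.08 over all genes. Of the 5 members that fell with siGGCAGU, 3, GRN, GUSB and LAMP1, had 0 copies. The other 2, ATP6V0A2 and MCOLN1, had 1 copy each, and NEU1, which rose by 1.21, had 2. These sites are shown because their genes moved in opposite directions (hg38, plus strand for ATP6V0A2 and MCOLN1, minus strand for NEU1).
ATP6V0A2, chr12:123758135-123758140: atcttcattACTGCCttatgacat
MCOLN1, chr19:7533805-7533810: ttcgacctgACTGCCgttggaccg
NEU1, chr6:31859097-31859102: gatgtgcgtACTGCCtgtgaaaat
In the shortest annotated 3′ UTRs ACTGCC was found in 3 members, ATP6V1E1, ATP6V0A2 and NEU1, with a median of 1.13. In CTSA and HEXA both words overlap.

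The start sites were searched for CACGTG and for the longer TCACGTGA that holds it, each its own reverse complement. RefSeq promoter windows (GRCh38.p14, from 250 bases before to 50 bases after a start) were given for 26 of the 35 members, in 36 windows. CACGTG was in 9 windows (25.0%), each of another member, in 7.26% of all 35116 windows and in 9.09% of the 16003 windows of tested genes. TCACGTGA was in 5 (13.89%) in 0.98% of all windows and in 1.62% of those of tested genes. The stretches around the word are shown for members of each sector of the pump and for MCOLN1 and NEU1, with CACGTG in capitals (plus strand, NEU1 minus strand).
ATP6V0B, chr1:43974891-43974920: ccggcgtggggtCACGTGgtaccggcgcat
ATP6V0B, chr1:43974909-43974938: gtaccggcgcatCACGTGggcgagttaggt
ATP6V1G1, chr9:114587699-114587728: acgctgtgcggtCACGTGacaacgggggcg
MCOLN1, chr19:7522571-7522600: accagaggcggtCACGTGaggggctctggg
MCOLN1, chr19:7522598-7522627: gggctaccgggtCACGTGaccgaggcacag
NEU1, chr6:31862930-31862959: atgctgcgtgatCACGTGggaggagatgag
For siGGGGGC at 48 h the 9 members with CACGTG had a median log2 fold change of 0.13, and the 16 tested members whose windows lack it 0.21. With siGGCAGU the medians were 0.18 and 0.38. The order was the opposite for siGGGGGC at 24 h (0.147 with and 0.022 without the word), for siNT1 over time (0.285 and 0.068) and for siGGGGGC against siGGCAGU (-0.03 and -0.219), and these are descriptions with no test. The windows of GLA, which rose beyond 1 on the log2 scale with both siRNAs, lack the word, and LAMP1, with 6 copies, was at -0.21 with siGGGGGC and -0.22 with siGGCAGU. Other members went the other way. ATP6V0B, ATP6V1G1 and NEU1 hold the word and rose with both siRNAs, and GRN and GUSB lack it and fell with siGGCAGU.

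Among the transcription factors that bind this word, TFEB had between 3.92 and 17.6 normalised counts in the 10 libraries, MITF between 24.5 and 61.2, and TFE3 between 88.7 and 259.6. MITF fell with each toxic siRNA, by 1.11 ± 0.263 with siGGGGGC at 24 h, by 0.94 ± 0.225 with siGGGGGC at 48 h and by 1.09 ± 0.225 with siGGCAGU (adjusted p = 0.00784, 0.0024 and 0.000778, edgeR). TFE3 had log2 fold changes of 0.31 with siGGGGGC and 0.29 with siGGCAGU at 48 h (adjusted p = 0.128 and 0.158, edgeR), and TFEB of -0.09 and -0.55 (adjusted p = 0.873 and 0.337, edgeR). The fourth family member, TFEC, had 22.5 and 24.6 normalised counts with siNT1 at 48 h, 315 and 261.1 with siGGCAGU, and 109.5 and 98.4 with siGGGGGC. TFEC rose by 3.59 ± 0.212 with siGGCAGU and by 2.13 ± 0.233 with siGGGGGC (adjusted p = 2.10e-09 and 1.71e-06, edgeR). Of the 21 genes listed for the MiT/TFE factors and the nutrient sensing that controls them, 8 (38.1%) rose and 6 (28.6%) fell with siGGGGGC at 48 h, where 27.8% and 27.5% of all genes did. With siGGCAGU 12 (57.1%) rose and 4 (19%) fell, where 27.8% and 24.9% of all genes did. RHEB, the activator of mTORC1, rose by 0.99 with siGGGGGC, and RRAGD, a GTPase that recruits these factors to the lysosome, by 1.08 with siGGCAGU. LAMTOR1, the anchor of the Ragulator complex, fell by 0.98 ± 0.0910 with siGGGGGC at 48 h and by 1.04 ± 0.0932 at 24 h (adjusted p = 2.93e-07 and 2.71e-06, edgeR).

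Other genes of the pathway were counted by lists that hold no member. Of 41 tested other hydrolases and cofactors, 12 (29.3%) rose and 7 (17.1%) fell with siGGGGGC at 48 h, a share of rises near the 27.8% of all genes. With siGGCAGU 23 (56.1%) rose and 8 (19.5%) fell, where 27.8% and 24.9% of all genes did. CTSO, another cysteine peptidase, rose with both, by 1.65 ± 0.147 with siGGGGGC and by 2.27 ± 0.143 with siGGCAGU (adjusted p = 2.00e-07 and 4.35e-09, edgeR). Its normalised counts were 79.8 and 77.3 with siNT1, 421.1 and 341 with siGGCAGU, and 247 and 246.5 with siGGGGGC. HYAL2, a hyaluronidase, fell by 1.89 with siGGGGGC, as did GM2A, the activator of ganglioside breakdown, by 1.43. SMPD1, the acid sphingomyelinase, fell by 2.11 ± 0.216 with siGGCAGU (adjusted p = 7.76e-07, edgeR). In the direct comparison 9 of the 41 (22%) were higher and 16 (39%) lower with siGGGGGC, among the latter GM2A (-2.10). Of all genes 26.7% were higher and 27.6% lower.

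Of 13 tested other V-ATPase subunits and assembly factors, 2 (15.4%) rose and 4 (30.8%) fell with siGGGGGC at 48 h, and 4 (30.8%) rose and 4 (30.8%) fell with siGGCAGU, so that of these shares the 15.4% was the farthest from that of all genes. Their medians were 0.06 and 0.10, where those of the 8 V1 members were 0.63 and 0.81. The 5 tested V0 members had medians of 0.694 and 0.095, so with siGGCAGU they were close to these other V-ATPase genes. DMXL2, of the complex that assembles V1 and V0, rose by 0.76 with siGGGGGC (adjusted p = 1.37e-05, edgeR), and ATP6V0A4, an isoform best known from kidney, by 1.51 with siGGCAGU (adjusted p = 2.55e-05, edgeR). ATP6V1C2, another isoform of subunit C, fell by 1.09 ± 0.412 with siGGGGGC and by 1.16 ± 0.405 with siGGCAGU (adjusted p = 0.0342 and 0.0256, edgeR). ATP6V0E2, a relative of ATP6V0E1, had 10.1 and 12.6 normalised counts with siNT1 at 48 h, 0 and 3.72 with siGGCAGU, and 23.5 and 22.8 with siGGGGGC. It was called lower with siGGCAGU (adjusted p = 0.00806, edgeR) and higher with siGGGGGC (adjusted p = 0.0479, edgeR), both on few counts and not checked under the alternatives. Of 23 tested other lysosomal membrane proteins and transporters, 7 (30.4%) rose and 3 (13%) fell with siGGGGGC, where 27.8% and 27.5% of all genes did. With siGGCAGU 7 (30.4%) rose and 5 (21.7%) fell, near the 27.8% and 24.9% of all genes. OSTM1, the partner of the chloride exchanger CLCN7, rose by 0.76 ± 0.0861 with siGGGGGC and by 1.01 ± 0.0863 with siGGCAGU (adjusted p = 2.30e-06 and 1.12e-07, edgeR). MCOLN3, a relative of MCOLN1, fell by 1.47 with siGGCAGU (adjusted p = 0.000183, edgeR).

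Of the 13 genes that sort hydrolases to the lysosome, 3 (23.1%) rose and 3 (23.1%) fell with siGGGGGC at 48 h, near the 27.8% and 27.5% of all genes. With siGGCAGU 0 rose and 4 (30.8%) fell, where 27.8% and 24.9% of all genes did. SORT1, sortilin, which carries prosaposin and progranulin, had 572 and 455 normalised counts with siNT1, 422 and 476 with siGGCAGU, and 1179 and 1124 with siGGGGGC. It rose by 1.17 ± 0.110 with siGGGGGC (adjusted p = 3.56e-07, edgeR). NAGPA, which completes the mannose 6-phosphate tag, and AP1M1, a subunit of the AP-1 adaptor, fell with siGGCAGU by 1.31 and 1.25. At 24 h, where siGGGGGC raised 10.6% of all genes and lowered 8.32%, 4 of the 13 V-ATPase genes (30.8%) and 2 of the 13 sorting genes (15.4%) rose and 0 fell. Of the 41 hydrolases 2 (4.88%) rose and 0 fell, of the 23 membrane proteins 1 (4.35%) rose and 1 fell, and of the 21 MiT/TFE genes 2 (9.52%) rose and 2 fell. Among the V-ATPase genes ROGDI, of the assembly complex, rose by 1.13 ± 0.304 (adjusted p = 0.0165, edgeR).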

How the data were processed

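Raw counts per gene of 10 HeyA8 libraries were used. The deposited counts were made by the authors from paired-end total RNA reads after depletion of ribosomal RNA: reads were trimmed with Trimmomatic, aligned to hg38 and assigned to exons with htseq. TopHat or STAR is named as the aligner, and which of them made these files and the strand setting are not given in the sources used here. Tables of the authors' own comparisons (fold changes and p-values) were not used.

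Groups came from the sample titles and transfection labels. The counts of 58395 genes were filtered with filterByExpr (16905 kept) and fitted with edgeR 4.0.16 (R 4.3.3) by glmQLFit and glmQLFTest in a single model of 5 groups, with TMM factors and 5 residual degrees of freedom. Benjamini-Hochberg adjustment covered all genes tested, and an adjusted p below 0.05 counted as a call. The standard errors (SE) were derived from the test, as the absolute log2 fold change divided by the square root of its quasi-likelihood F statistic. The edgeR fit was also run on simulated counts. These had the same spread in every group, so they cannot show how the calls behave where groups differ in spread, as they do here. Coordinates, exons and 3′ UTRs are from GENCODE release 44, and miRNAs and promoters from RefSeq.

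The members and lists were chosen with earlier results of these data known. Values per library are given for members beyond 1 in absolute log2 fold change with a call in any siRNA comparison, members called in opposite directions by both siRNAs, and the 3 highest per length. Of each pathway list, TFEB, TFE3, MITF and at most 3 genes per comparison with the largest called changes are named. Alternatives were DESeq2 1.42.0, limma-voom 3.58.1, other scalings and filters, fewer libraries in the fit, a replicate block and leaving out each library. They were read for the members only, so no call of a pathway list gene was checked under them. With 2 libraries a group the precision is limited by their number, and total counts per library were at least 19781445. Results for 1 gene of the pathway lists and 1 of the seed match sites are not reported here.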

Additional observations from a re-analysis of the deposited data

Results flagged for a closer look

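The effect of siGGGGGC on 18 members differed between 48 h and 24 h by the interaction term of the edgeR fit. On the log2 scale the difference was positive for GLA (1.61), ATP6V0A1 (1.04), ATP6V1D (0.99), ATP6V1G1 (0.74), ATP6V1B2 (0.67), ATP6V1E1 (0.58), PSAP (0.58), ATP6V0A2 (0.54), ATP6V1A (0.51), NEU1 (0.47), CTSL (0.45), ATP6V1C1 (0.44), ATP6V0B (0.43) and LAMP2 (0.33). It was negative for GUSB (-0.74), CTSB (-0.59), GRN (-0.55) and LAMP1 (-0.38). The siNT1 control had itself changed between the time points for GRN (0.75), LAMP1 (0.79), CTSB (-0.42) and ATP6V1D (-0.38). The difference subtracts this change by its definition. For GRN and LAMP1 the rise of the control was larger than the size of the negative difference. The negative values of these genes thus stand for a smaller rise over time with siGGGGGC than with siNT1. The values of LAMP2 (adjusted p = 0.0482), NEU1 (adjusted p = 0.0371) and LAMP1 (adjusted p = 0.035) were the closest to the threshold. Of the 18, the calls of GLA, ATP6V0A1, ATP6V1D, ATP6V1G1, ATP6V1B2, ATP6V1E1 and PSAP were kept under all 19 alternatives. With 2 libraries a group, no library could be tested as an outlier.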

How the results depend on the processing

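Over 19 alternatives, 0 of 101 member calls changed sign, 61 kept their call throughout and 40 lost it at least once. Leaving out libraries or genes also changed which genes passed the count filter. With upper-quartile scaling 3 members were lower with siGGGGGC at 24 h, 4 were lower in siNT1 at 48 h against 24 h, and the median of the latter was 0.016. Of all 16905 genes, 1662 and 1736 were lower in the same comparisons. A fit of the 12404 protein-coding genes alone gave 3 and 4 lower members in these comparisons, where 1355 and 1315 of its genes were lower. A mean count of at least 50 gave 3 lower at 24 h, where 1472 of 11516 genes were. Without a count filter there were 3 higher members with siGGGGGC at 24 h, 9 lower at 48 h and 7 with a positive difference between the times. Of all 41458 genes in that fit, 1789 were higher at 24 h, 5626 lower at 48 h and 1626 positive in the difference. The medians were 0.155 with siGGGGGC at 48 h, 0.299 with siGGCAGU, 0.15 in siNT1 over time and 0.18 for the difference between times, where the median of all genes moved to 0.143. With only the libraries compared in the fit, 7 members were higher and 5 lower with siGGGGGC at 24 h. There were 5 lower at 48 h, where 4642 of 16280 genes were lower, and 3 lower with siGGCAGU, where 3855 of 16756 genes were. The median with siGGCAGU was 0.328, and the rises of ATP6AP1, ATP6V1H, LAMP2, CTSZ, TPP1 and NPC2 were lost. Of the 14869 genes in the fit of the 24 h libraries, 2617 (17.6%) were higher and 2488 lower with siGGGGGC. DESeq2 gave 3 lower members with siGGCAGU, where 3628 of 16905 genes were lower. In the shortest 3′ UTRs GCCCCC was in 6 members (median -0.158) and ACTGCC in 3 (median 1.13).

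Leaving out 1 library gave 1 to 4 higher and 1 to 2 lower members with siGGGGGC at 24 h (median 0.077 to 0.127), 2 to 5 lower with siGGGGGC at 48 h, 3 to 4 lower with siGGCAGU (median 0.298 to 0.401), 7 to 11 higher and 12 to 15 lower with siGGGGGC against siGGCAGU, 2 to 8 higher and 0 to 4 lower in siNT1 over time, and 9 to 14 positive and 1 to 4 negative differences between times (median 0.25 to 0.319). The labels do not say that a replicate number marks a shared batch. The correlation of the deviations of same-numbered libraries was -0.293 to 0.115 over 10 pairs of groups, with 1 above 0.1. With 2 libraries a group these values cannot exclude a shared batch. With the replicate block 1 member was lower in siNT1 over time, where 951 of 16905 genes were. The higher members with siGGCAGU went from 21 to 19 and the lower from 5 to 4, where 4560 and 4065 of all genes were higher and lower. The positive differences between times went from 14 to 12, where 2084 of all genes had them, and 7 calls were lost in all. For the changes in this part the cause was not tested, apart from the leave-one-out fits, which have fewer samples. Among the members, TPP1 (0.204) and MCOLN1 (0.17) had the largest standard errors with siGGGGGC at 48 h.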
